A study of Mus musculus with 11 samples.

Results

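DNA replication licensing genes were followed across 11 RNA-seq libraries of cultured mouse mesenchymal stem cells (MSCs, stromal cells that can give rise to bone, fat and cartilage cells). The set was fixed by name and held 10 genes: Mcm2, Mcm3, Mcm4, Mcm5, Mcm6, Mcm7, Mcm10, Cdc6, Cdt1 and Pcna. Of these, 9 had a row among the 28222 genes counted, and all 9 passed the filter on low counts. The expression of Cdt1 was not analysed here, and only its position and promoter window are described.

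Young MSCs came from mice of 3 to 5 months and old MSCs from mice of 18 to 22 months. The libraries formed 4 groups. A young held 4 libraries of batch A, B young and B old held 2 libraries each of batch B, and C old held 3 libraries of batch C. All cells were grown at 2% oxygen in αMEM with 10% fetal bovine serum and 1% penicillin/streptomycin, and polyadenylated RNA was sequenced. The labels give no strain, sex or genotype and do not say what a batch shares, nor whether libraries of a group came from separate mice or cultures. The p-values therefore measure the spread between these libraries, which may be technical. Age and batch vary separately only within batch B.

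Before a cell copies its DNA, each origin of replication has to be licensed. The origin recognition complex binds DNA and, with Cdc6 and Cdt1, loads the ring-shaped MCM helicase, which is built of the 6 related subunits Mcm2 to Mcm7. In S phase, kinases and further factors turn the loaded ring into an active helicase, a step in which Mcm10 takes part, and Pcna forms the sliding clamp that holds DNA polymerases on their template. Cells that leave the cell cycle lose their licensing proteins, so that MCM proteins and Pcna are used as markers of cells that are able to proliferate.

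Total counts per library ranged from 11969336 to 20315934. Of 10 MSC marker genes, all 10 were detected in every group, with summed levels of 90160 to 99980 CPM (counts scaled to library size) in A young, 45970 to 75670 in B young, 40950 to 43220 in B old and 36250 to 38360 in C old. These sums consist mostly of the collagen genes Col1a1 (55990 CPM on average in A young and 18970 in C old) and Col1a2 (35040 and 15510). Some other MSC markers had their highest level in C old, such as Pdgfra (189.0 CPM on average in A young and 278.0 in C old) and Prrx1 (412.2 and 525.8). Others had their lowest level there, such as Ly6a (456.1 and 293.4), Eng (91.26 and 56.52) and Cd44 (264.0 and 190.8). Of the 10, 4 were called higher and 5 lower in C old than in A young, beside 32% and 31.9% of all tested genes. The 13 leukocyte markers, Ptprc among them, were also all detected in every group, and they summed to 675.4 to 1466 CPM in A young, 382.2 to 778.4 in B young, 782.3 to 1132 in B old and 132.7 to 155.7 in C old. Markers of erythroid cells, endothelial cells and lymphocytes summed to at most 3.84, 1.825 and 0.5238 CPM in any library. The part of these other cells in the results below was not tested. In bulk RNA, fewer cycling cells and less RNA per cell cannot be told apart.

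On the mouse build GRCm38, the genes of the helicase ring lie on 5 chromosomes. Mcm2 is at chr6:88883474-88898780, Mcm3 at chr1:20802968-20820312 and Mcm6 at chr1:128331590-128359664, Mcm4 at chr16:15623897-15637400 and Mcm7 at chr5:138164583-138172422, all on the minus strand. Mcm5 is at chr8:75109569-75128439 on the plus strand. Mcm10 (chr2:4989714-5012791) and Pcna (chr2:132249162-132253314) are on the minus strand, and Cdc6 (chr11:98907801-98923940) is on the plus strand. Exons of Mcm7 overlap exons of Cops6 over 64 bases and of Ap4m1 over 321 bases on the opposite strand, and whether the counting used strand is not given in the sources used here. Mcm4 shares no exonic base with its divergent neighbour Prkdc. The pseudogene Pcna-ps2 was counted at 6.67 to 11.5 CPM, and reads of Pcna may be shared with it.

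Cdt1 (chr8:122568015-122573554) lies on the same strand inside the annotated span of Gm20388, a gene model that covers chr8:119910841-124345722. Gm20388 held 24382 to 45058 counts per library. None of the 36 protein-coding genes inside this span on its strand had a row in the count table, against 32 of 35 on the opposite strand and 18094 of 22028 protein-coding genes in the whole annotation. The reason was not tested.

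All 9 licensing genes were detected in every library with at least 32 counts, well above the 3 counts taken as the floor, which correspond to 0.156 to 0.253 CPM. Divided by the length of the longest coding transcript (CPM per kb), the clamp Pcna was the highest in all 4 groups, with means of 42.6 ± 6.61 in A young (SD, n = 4), 37.1 ± 8.29 in B young (SD, n = 2), 46.1 ± 8.96 in B old (SD, n = 2) and 40.8 ± 2.54 in C old (SD, n = 3). Its libraries did not overlap with those of the gene ranked next to it in any group. The helicase subunits followed within a narrow band, from 10.0 for Mcm5 to 16.0 for Mcm7 in A young and from 9.99 for Mcm2 to 15.7 for Mcm4 in C old. In B young the band ran from 4.82 (Mcm5) to 10.2 (Mcm7), and in B old from 7.08 (Mcm5) to 14.3 (Mcm7). Cdc6, the loading factor, and Mcm10 were lowest in every group, at 0.527 to 1.95 and 0.479 to 1.86 CPM per kb, and all helicase subunits lay above both without overlap.

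**Figure D1:**
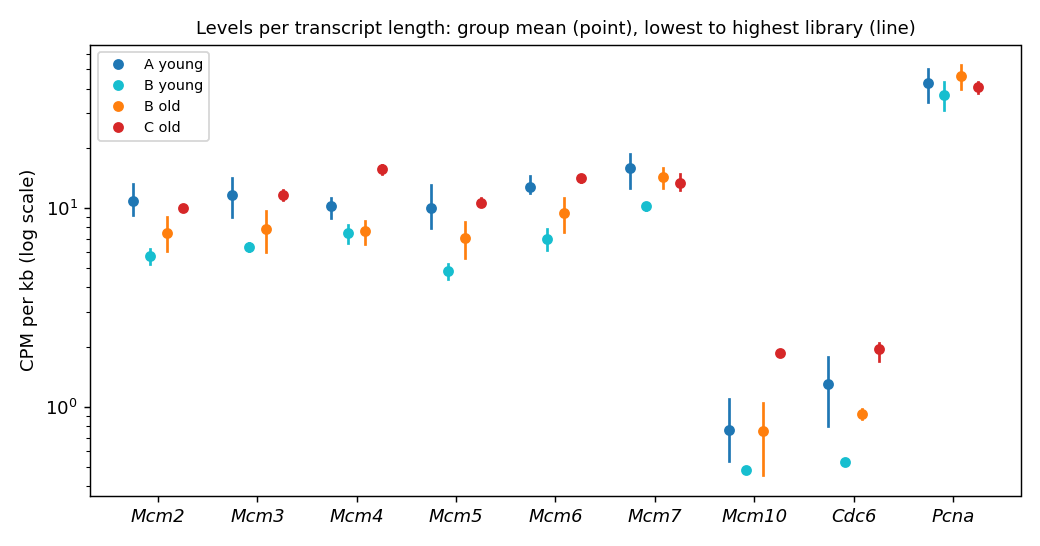
Levels of the 9 licensing genes on a log scale in CPM per kb of transcript, with the group mean as a point and the range of libraries as a line. Pcna spans 31.2 to 52.5, Mcm2 to Mcm7 span 4.39 to 18.7, and Mcm10 and Cdc6 span 0.453 to 2.09.

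The order inside the helicase band differed between the groups. In A young, no neighbours from Mcm7 down to Mcm5 were separated beyond the spread of their libraries. In B young and B old, Mcm7 stood above the other 5 subunits in both libraries by this length. In C old, Mcm4 ranked 2nd behind Pcna and lay above Mcm6 in all libraries, while Mcm6 and Mcm7 overlapped with each other. The order depends on the transcript length used. With the union of exons, Mcm7 was still above the other subunits in B old (9.58 CPM per kb), but Mcm6 (12) was above Mcm7 (10.7) in A young and Mcm4 (7.46) above Mcm7 (6.80) in B young, and Mcm4 remained 2nd in C old.

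The first question was whether licensing genes differ with age where age and batch can be separated, that is between the B old and B young libraries. None of the 9 genes passed the threshold in the edgeR quasi-likelihood fit with a batch term (adjusted p under 0.05), in which 0.694% of all 16132 tested genes were called higher and 1.54% lower in old cells. All 9 fitted log2 fold changes were above 0, with a median of 0.43 against 0.00 over all tested genes. At an unadjusted p under 0.05 there were 4 of 9 (Mcm5, Mcm6, Mcm7 and Cdc6), beside 16.1% of all tested genes. Limma-trend and DESeq2 likewise called none of the 9.

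Among the helicase subunits, Mcm7 had the smallest adjusted p. Its levels were 47.3 and 37.5 CPM in B old and 29.0 and 31.2 CPM in B young, a log2 fold change of 0.50 ± 0.16 (SE), with a 95% interval of 0.15 to 0.84 and an adjusted p of 0.131 in edgeR. Mcm5 measured 28.9 and 19.0 CPM in B old against 14.8 and 17.8 CPM in B young (0.56 ± 0.22, adjusted p = 0.217 in edgeR). For both genes the old libraries lay above the young ones. Mcm6 was 49.2 and 33.1 CPM in B old and 34.2 and 26.8 CPM in B young (0.43 ± 0.17, adjusted p = 0.205 in edgeR), and its groups overlapped. Mcm4 was the most even, with 31.1 and 23.9 CPM in B old and 29.4 and 24.1 CPM in B young (0.03 ± 0.15, 95% interval -0.28 to 0.35). Mcm2 and Mcm3 had log2 fold changes of 0.39 and 0.29, and their groups overlapped.

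Cdc6 had the largest fitted difference. It was at 4.51 and 4.01 CPM in B old and at 2.35 and 2.52 CPM in B young, so that the groups did not overlap, with a log2 fold change of 0.81 ± 0.31 and an adjusted p of 0.206 in edgeR. Mcm10 was at 5.12 and 2.20 CPM in B old, on either side of the 2.35 and 2.31 CPM in B young (0.65 ± 0.36, adjusted p = 0.399 in edgeR). Pcna was at 79.6 and 60.4 CPM in B old and 47.4 and 65.2 CPM in B young (0.32 ± 0.18, adjusted p = 0.399 in edgeR). In total, both B old libraries lay above both B young libraries for 3 of 9 licensing genes, and this was the case for 19.2% of all tested genes.

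B old replicate 1 exceeded B old replicate 2 for all 9 genes, by 1.13 to 2.32 times, and the fitted values depended on which was kept. Without B old replicate 1 the log2 fold changes of Mcm2, Mcm5, Mcm6 and Mcm7 were 0.09, 0.23, 0.13 and 0.33, and without B old replicate 2 they were 0.64, 0.83, 0.69 and 0.65. Pcna ranged from 0.10 to 0.56 and Cdc6 from 0.73 to 0.89 with any library left out. Without B old replicate 1 the log2 fold changes of Mcm3, Mcm4 and Mcm10 turned to -0.08, -0.16 and -0.07, and without B young replicate 2 that of Mcm4 was -0.10. Without a filter on low counts, Mcm5 and Mcm7 passed the threshold (adjusted p = 0.0205 and 0.0264 in edgeR).

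**Figure D2:**
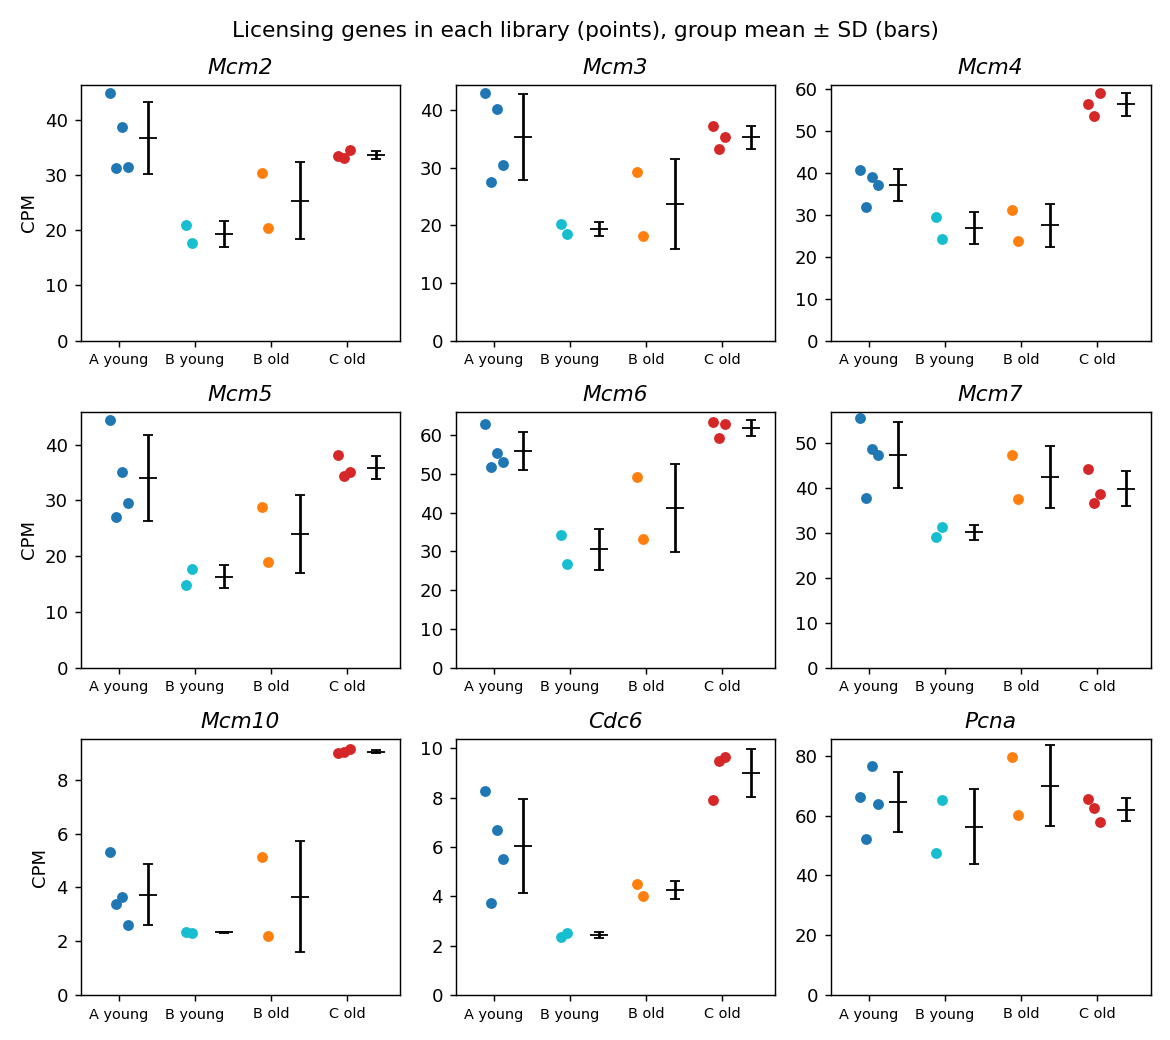
CPM of each licensing gene in every library (points), with the group mean ± SD beside them, for A young (n = 4), B young (n = 2), B old (n = 2) and C old (n = 3). B young libraries are low for most genes, C old libraries are close to each other and stand alone at the top for Mcm4 and Mcm10, and the groups of Pcna overlap.

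Other replication genes were described from 9 lists. In the age comparison, 1 of 11 genes of helicase activation passed the threshold. This was Gins2, a subunit of the GINS complex of the active helicase, with 12.1 and 12.7 CPM in B old against 5.78 and 7.35 CPM in B young (log2 fold change 0.92 ± 0.17, adjusted p = 0.00922 in edgeR). Gins2 lies within the span of Gm20388, on the opposite strand. Of 8 Pcna partners, Pclaf, a small Pcna-binding protein, was higher (0.94 ± 0.23, adjusted p = 0.0407 in edgeR). Its levels were 33.9 and 22.2 CPM in B old and 13.1 and 16.3 CPM in B young. Of 7 genes of nucleotide supply, Rrm1, the large subunit of ribonucleotide reductase, was higher (0.75 ± 0.17, adjusted p = 0.0326 in edgeR), with 148.9 and 119.4 CPM in B old and 81.1 and 78.4 CPM in B young. The calls of Gins2, Pclaf and Rrm1 were kept with RLE factors and with total counts. Their values with a library left out were not examined.

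No gene was called in either direction among 7 of origin recognition, 14 of licensing control, 29 polymerase and fork genes, 18 of the E2F and RB family, 3 tested MCM relatives (Mcm8, Mcm9 and the MCM-binding protein Mcmbp) and 15 mitosis markers. The median log2 fold changes of these lists were 0.25, 0.46, 0.20, 0.04, 0.09 and 0.67. Genes at an unadjusted p under 0.05 numbered 1, 7, 4, 1, 0 and 11, beside 16.1% of all tested genes. The proliferation marker Mki67, singled out for its role after its values were seen, was at 35.0 and 24.7 CPM in B old and 21.6 and 18.5 CPM in B young (0.57, adjusted p = 0.307 in edgeR). Of the MSC markers, Pdgfra and Nt5e were lower in B old (-0.86 and -1.34, adjusted p = 0.0059 and 0.00932 in edgeR). No leukocyte marker was called, with a median of 0.75 and 7 of 13 at an unadjusted p under 0.05 (16.1% of all tested genes).

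The next comparison asked how far young MSCs of different batches differ. In B young, 7 of 9 licensing genes were lower than in A young, where 8.71% of 14840 tested genes were called lower and 9.39% higher, and none of the 9 was higher. The loading factor Cdc6 differed most, with 8.26, 3.72, 6.69 and 5.53 CPM in A young and 2.35 and 2.52 CPM in B young (log2 fold change -1.31 ± 0.31, adjusted p = 0.0139 in edgeR). Mcm5 had 44.3, 26.9, 35.0 and 29.6 CPM in A young (-1.04 ± 0.20, adjusted p = 0.00508 in edgeR) and Mcm6 62.9, 51.8, 55.4 and 53.1 CPM (-0.85 ± 0.14, adjusted p = 0.00285 in edgeR). All A young libraries lay above all B young libraries for these genes, and the share of all tested genes so separated was not counted.

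Mcm2 ranged from 31.3 to 44.9 CPM in A young and from 17.7 to 21.0 CPM in B young (-0.90 ± 0.17, adjusted p = 0.00519 in edgeR). Mcm3 ranged from 27.5 to 43.1 CPM and from 18.4 to 20.3 CPM (-0.85 ± 0.18, adjusted p = 0.00918 in edgeR). The differences of Mcm7 (-0.63 ± 0.15, adjusted p = 0.0153 in edgeR) and Mcm4 (-0.45 ± 0.14, adjusted p = 0.0442 in edgeR) were smaller.

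Mcm10, at 5.32, 3.38, 3.63 and 2.60 CPM in A young, missed the threshold (-0.67 ± 0.31, adjusted p = 0.141 in edgeR). Pcna, at 66.2, 52.1, 76.6 and 63.9 CPM in A young, overlapped with B young (-0.18 ± 0.17, 95% interval -0.54 to 0.18). A young replicate 1 was the highest of its group for 8 of the 9 genes, Pcna being the exception. By a mean chi-square per gene, the 2 B young libraries differed most among replicates (52.6 against 3.25 to 23.8). This measure covers all genes, uses raw counts and grows with depth and abundance. For the licensing genes, SD relative to the mean was smaller in B young than in B old, except for Pcna (22.3% against 19.4%). Without B young replicate 2, which leaves 1 library in the group, Mcm2, Mcm3, Mcm4, Mcm7 and Cdc6 lost their calls. Their log2 fold changes were then -0.32 to -1.36. The call of Mcm4 was also lost with total counts as the scale (-0.37, adjusted p = 0.0725 in edgeR) and without A young replicate 1, 3 or 4 (log2 fold changes of -0.40, -0.43 and -0.45), and that of Cdc6 without B young replicate 1 (-1.25, adjusted p = 0.0511 in edgeR).

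Among the lists, 14 of 15 mitosis markers were lower in B young, with a median log2 fold change of -1.38 against 0.01 over all genes, and Mki67 fell from 47.9 to 97.7 CPM in A young to 18.5 and 21.6 CPM in B young (-1.68). Lower genes also numbered 3 of 11 in helicase activation (Cdc45, Gins2 and Ticrr), 8 of 28 among polymerases and fork genes, 4 of 8 Pcna partners, 4 of 18 in the E2F and RB list (E2f1, E2f2, E2f7 and E2f8), 1 of 3 MCM relatives (Mcm8, -0.74) and 0 of 7 in nucleotide supply. Origin recognition held 2 higher genes (Orc3, 0.41, and Orc4, 0.83) and 0 lower of 7, and licensing control held 1 higher gene (Cul4b, 0.44) and 1 lower gene (Ccna2, -1.28). With total counts as the scale, 20.4% of all tested genes were called, and 66.4% of these calls were higher. On that scale, 11 of 15 mitosis markers and 7 of 28 polymerase and fork genes were called lower, and Mcm8 was no longer called (-0.66, adjusted p = 0.0644 in edgeR). Beside these, 6 of 13 leukocyte markers were lower in B young.

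Old MSCs of batch C and batch B were compared next. In C old, 7 of 9 licensing genes were higher than in B old. In this comparison 32.1% of 15651 tested genes were called higher and 32.6% lower, so that calls were common. Mcm10 measured 9.01, 9.04 and 9.14 CPM in C old (log2 fold change 1.30 ± 0.26, adjusted p = 0.00081 in edgeR) and Cdc6 7.89, 9.49 and 9.65 CPM (1.07 ± 0.17, adjusted p = 0.000175 in edgeR). Mcm4 measured 56.5, 53.6 and 59.1 CPM (1.03 ± 0.10, adjusted p = 3.74e-06 in edgeR). For these genes, all C old libraries lay above both B old libraries, and the share of all tested genes so separated was not counted.

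Mcm6 was at 63.2, 59.3 and 62.8 CPM in C old (0.58 ± 0.13, adjusted p = 0.00167 in edgeR) and Mcm5 at 38.2, 34.4 and 35.0 CPM (0.58 ± 0.14, adjusted p = 0.00323 in edgeR). Mcm3 (0.57 ± 0.15, adjusted p = 0.00589 in edgeR) and Mcm2 (0.40 ± 0.13, adjusted p = 0.018 in edgeR) were also higher. Mcm7 was not called, with 44.2, 36.6 and 38.7 CPM in C old (-0.09 ± 0.11, 95% interval -0.33 to 0.14), and neither was Pcna, with 65.5, 62.5 and 57.8 CPM (-0.18 ± 0.10, 95% interval -0.41 to 0.05).

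The values of most members depended on which B old library was kept. Without B old replicate 2 and without B old replicate 1, the log2 fold changes were 0.81 and 2.03 for Mcm10, 0.85 and 1.23 for Mcm4, 0.32 and 0.89 for Mcm6, 0.31 and 0.91 for Mcm5 and 0.26 and 0.95 for Mcm3, and these 5 genes were called in both. Cdc6 ranged from 0.98 to 1.17 with any library left out. Without B old replicate 2, Mcm7 and Pcna were called lower in C old (-0.25 and -0.37, adjusted p = 0.0355 and 0.000935 in edgeR), and without B old replicate 1 their values were 0.08 and 0.03. Mcm2 lost its call without B old replicate 2 (0.14) and without C old replicate 3 (0.39). Its call was also lost in a fit of all 4 groups (0.41, adjusted p = 0.0568 in edgeR).

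In C old, Cdc7, the kinase that phosphorylates the loaded ring, was higher (log2 fold change 1.82 ± 0.17, adjusted p = 1.81e-06 in edgeR) with 5 other genes of licensing control, while 4 of its 14 genes were lower. Helicase activation held 7 higher and 1 lower of 11, polymerases and fork genes 15 higher and 5 lower of 28, Pcna partners 5 higher and 1 lower of 8, and mitosis markers 9 higher and none lower of 15. The lower fork genes were Pold4, Pole3, Pole4, Rpa3 and Rnaseh2a. Origin recognition was divided, with Orc1 higher (1.53) and Orc2 (-0.39) and Orc4 (-0.58) lower. Nucleotide supply held 1 higher and 2 lower of 7, the E2F and RB list 6 and 6 of 18, and the MCM relatives 1 higher of 3 (Mcm8, 1.28). These counts depend on the scale. Scaled by total counts, 65.8% of all tested genes were called in place of 64.7%, and 62.9% of these calls were higher in place of 49.6%. With total counts there were 2 higher and 1 lower in origin recognition, 7 and 1 in licensing control, 9 and 1 in helicase activation, 20 and 4 among polymerases and fork genes, 6 and 1 among Pcna partners, 4 and 1 in nucleotide supply, 8 and 3 in the E2F and RB list, 3 and 0 among MCM relatives and 10 and 0 among mitosis markers, and Orc2 (-0.20) and Rpa3 (-0.27) were no longer called. Mki67 was at 146.6 to 163.3 CPM in C old. All 13 leukocyte markers were lower in C old, with a median of -2.71.

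C old was also set against A young, where age and batch cannot be told apart. Of the 9 licensing genes 4 were called higher and none lower, with 32% of 15021 tested genes called higher and 31.9% lower. Mcm10 (log2 fold change 1.31 ± 0.20, adjusted p = 8.73e-05 in edgeR) and Mcm4, with 40.6, 31.9, 39.1 and 37.0 CPM in A young (0.66 ± 0.09, adjusted p = 2.59e-05 in edgeR), lay above A young in all C old libraries. These 2 calls held with each library left out, and the share of all tested genes separated between the groups was not counted. Cdc6 (0.61 ± 0.21, adjusted p = 0.023 in edgeR) and Mcm6 (0.20 ± 0.08, adjusted p = 0.0364 in edgeR) overlapped between the groups. The call of Mcm6 was lost without A young replicate 2, 3 or 4 or any of the C old libraries (adjusted p = 0.062 to 0.137 in edgeR), and also with DESeq2 (adjusted p = 0.0556), without a filter and in a fit of all 4 groups, and its value was 0.03 after a correction for length and GC. The call of Cdc6 was lost after that correction (0.50, adjusted p = 0.0589 in edgeR) and without A young replicate 4, C old replicate 2 or C old replicate 3 (adjusted p = 0.0547 to 0.0821 in edgeR). Mcm2, Mcm3, Mcm5, Mcm7 and Pcna had log2 fold changes between -0.19 and 0.13, and those of Mcm2, Mcm7 and Pcna were 0.23, 0.10 and 0.29 when libraries were scaled by total counts, which moved the median of all genes to 0.31. Mcm5 was called higher without A young replicate 1 (0.28, adjusted p = 0.0206 in edgeR), and Mcm7 lower without A young replicate 2 (-0.29, adjusted p = 0.0144 in edgeR).

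**Figure D3:**
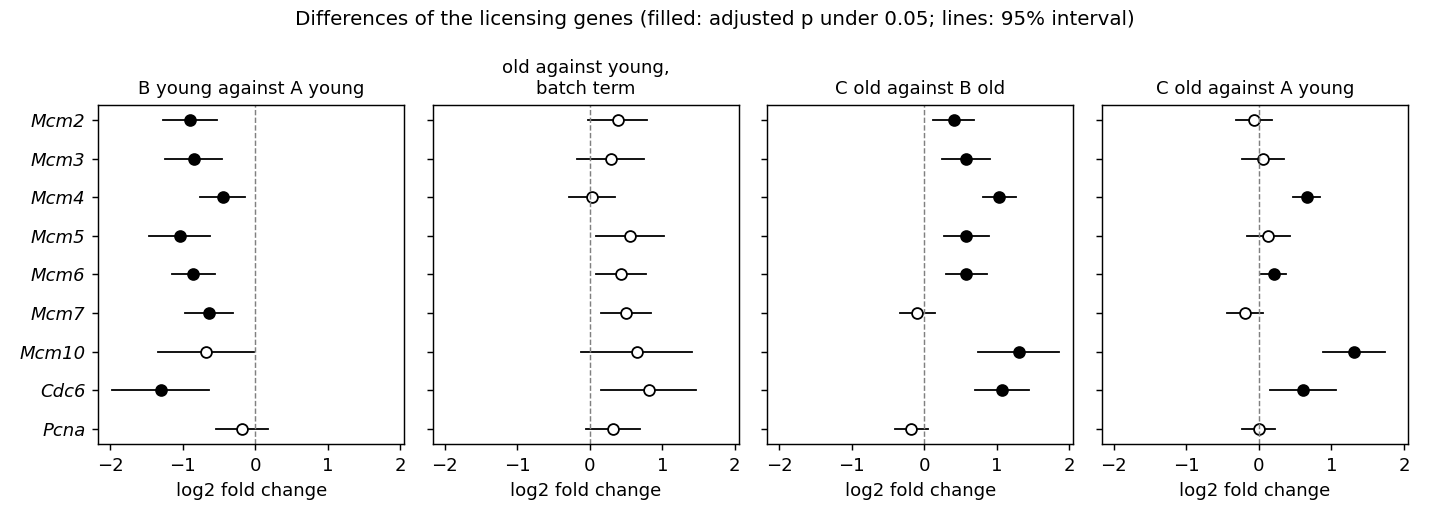
Log2 fold changes of the 9 licensing genes in 4 comparisons with 95% intervals, where filled points have an adjusted p under 0.05. Most points lie below 0 in B young against A young and above 0 in C old against B old, and no point is filled in the age comparison with a batch term.

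When age was fitted over all 11 libraries without a batch term, Mcm10 alone was called among the 9 genes (1.10 ± 0.35, adjusted p = 0.0486 in edgeR), where 9.33% of 14689 tested genes were called higher and 8.65% lower in old cells. The call was lost in 8 of the 11 fits that left out a library, and also with limma-trend. In the fit with the batch term, Mcm10 was not called. The fits share libraries, B young and B old being part of several comparisons.

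The balance between the 6 subunits of the helicase ring was compared within each library, which is independent of library scaling. No length and GC correction was applied to it. The length used shifts each subunit by a constant and leaves differences between groups the same. The level per kb of each subunit was set against the mean log2 level of all 6. Relative to this mean, Mcm4 was at -0.18 ± 0.10 in A young (SD, n = 4), 0.14 ± 0.13 in B young (SD, n = 2), -0.17 ± 0.10 in B old (SD, n = 2) and 0.34 ± 0.06 in C old (SD, n = 3). Mcm7 was at 0.44 ± 0.08 in A young, 0.60 ± 0.16 in B young, 0.74 ± 0.14 in B old and 0.11 ± 0.08 in C old. The C old libraries, at 0.28 to 0.40 for Mcm4 and 0.06 to 0.20 for Mcm7, did not overlap with any other library for either gene. How often other genes set C old apart in this way was not counted. Calls for single genes in C old were common, at 64.7% of all tested genes against B old and 63.8% against A young. Mcm2, Mcm3, Mcm5 and Mcm6 kept means of -0.31 to -0.12, -0.17 to -0.03, -0.48 to -0.23 and 0.05 to 0.19 in the 4 groups. The summed level of the 6 subunits was 246.1 ± 36.4 CPM in A young (SD, n = 4), 142.4 ± 8.99 in B young (SD, n = 2), 184.1 ± 45.2 in B old (SD, n = 2) and 262.8 ± 11.5 in C old (SD, n = 3).

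**Figure D4:**
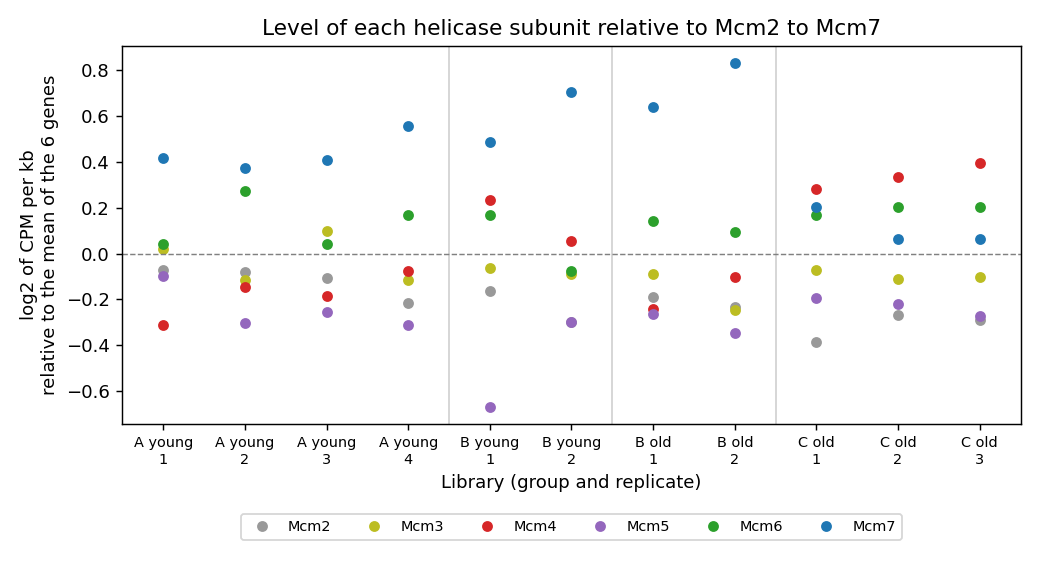
Level per kb of Mcm2 to Mcm7 relative to the mean of the 6 genes (log2) in each of the 11 libraries. With the longest coding transcript as the length, Mcm7 is the highest in A young, B young and B old, while Mcm4 is the highest in all 3 C old libraries. With the exon union, Mcm6 averages above Mcm7 in A young and Mcm4 above Mcm7 in B young.

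Across the 11 libraries, the genes of the set followed each other to different degrees. The Pearson correlation of log2 CPM with the mean of the other members was 0.965 for Mcm5, 0.946 for Mcm6, 0.941 for Mcm3, 0.93 for Cdc6 and 0.90 for Mcm2. It was 0.858 for Mcm4, 0.789 for Mcm10 and 0.668 for Mcm7, and lowest for Pcna at 0.369. Among 8966 other protein-coding genes with a mean log2 CPM of at least 3, outside the lists above, the 10 with the highest correlation with the mean profile were Incenp (0.984), Kif23 (0.98), Cdca2, Tpx2, Prr11, Kif2c, Prc1, Ncaph, Kntc1 and Iqgap3 (0.958). Incenp averaged 27.3 CPM in A young, 13.6 in B young, 19.3 in B old and 32.0 in C old. These correlations are descriptions over 11 libraries that share batches.

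Promoters of replication genes are known for binding sites of E2F factors, which activate them at the entry into S phase, and for CCAAT boxes. The promoter windows of the licensing genes (RefSeq, GRCm38.p6, 250 bases before to 50 bases after the start) were searched for 2 E2F-like forms and for CCAAT. A window was at hand for 9 of the 10 genes, Mcm4 having no entry, and Mcm7 had 2. The E2F-like letters TTTCGCGC or TTTGGCGC, on either strand, were present in the windows of Mcm3, Mcm5, Mcm6, Mcm7 and Cdt1, thus for 5 of 9 genes, and in 0.813% of all 32851 windows. CCAAT, on either strand, was present for 7 of 9 genes (all but Cdc6 and Cdt1) and in 37.4% of all windows. The E2F-like letters were not in the windows of Mcm2, Mcm10, Cdc6 and Pcna. Correlations with the other members were 0.965, 0.946, 0.941 and 0.668 for Mcm5, Mcm6, Mcm3 and Mcm7, which had the letters. They were 0.90, 0.789, 0.93 and 0.369 for Mcm2, Mcm10, Cdc6 and Pcna, without these 2 forms, and the expression of Cdt1 was not analysed. Other forms of an E2F site were not searched, so these windows may still hold one. Whether the letters bear on the correlations was not tested. Members were counted per gene, while the shares are per window. A match is a description of the sequence and was not tested for binding.

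The upstream windows of Mcm5 and Mcm6 are given because they hold a forward and a reverse match that overlap each other. These are the 250 bases before the start, from chr8:75109259-75109508 on the plus strand for Mcm5 and chr1:128359706-128359955 on the minus strand for Mcm6. For both genes this RefSeq start lies upstream of the GENCODE start given above. The first 30 bases after it were in no GENCODE transcript of the gene. For Mcm3 (chr1:20820263-20820292, minus strand), Mcm7 (chr5:138171849-138171878, minus strand) and Cdt1 (chr8:122568035-122568064, plus strand), 30 bases around the match after the start are given. Capitals mark the E2F-like letters, and all are written 5′ to 3′ on the strand of the gene.
Mcm5: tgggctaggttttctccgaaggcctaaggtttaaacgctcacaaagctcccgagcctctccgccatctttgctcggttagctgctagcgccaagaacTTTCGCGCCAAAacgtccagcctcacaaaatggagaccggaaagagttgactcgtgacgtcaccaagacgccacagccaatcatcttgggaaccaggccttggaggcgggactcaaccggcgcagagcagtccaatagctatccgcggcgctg
Mcm6: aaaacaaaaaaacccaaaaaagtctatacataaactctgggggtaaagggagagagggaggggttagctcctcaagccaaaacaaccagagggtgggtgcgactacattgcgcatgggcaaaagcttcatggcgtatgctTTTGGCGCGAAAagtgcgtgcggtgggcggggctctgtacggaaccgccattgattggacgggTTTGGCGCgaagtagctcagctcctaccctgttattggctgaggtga
Mcm3: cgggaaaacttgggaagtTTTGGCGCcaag
Mcm7: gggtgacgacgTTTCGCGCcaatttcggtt
Cdt1: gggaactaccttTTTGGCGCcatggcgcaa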

How the data were processed

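Polyadenylated RNA of 11 MSC libraries was sequenced by the authors, who deposited raw counts, whole numbers per Ensembl gene, without normalisation. Submitters' processing notes name mm10 and GRCm38, and the aligner and counter are not given in the sources used here. Positions and lengths come from GENCODE M21 (GRCm38, 1-based), which matched 28179 of 28222 identifiers. No column was left out.

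Counts were tested in R 4.3.3 by quasi-likelihood fits of edgeR 4.0.16 (filterByExpr with a minimum count of 5, TMM factors, two-sided, Benjamini-Hochberg adjusted p under 0.05 over all tested genes). Age was fitted over 11 libraries with a batch term, where only batch B informs its coefficient, and then without that term. Batches were compared within young and within old libraries, and C old with A young. CPM were scaled by TMM, and correlations used log2 CPM with 2 as the prior count. Intervals are 95%.

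The gene set, the lists (origin recognition, licensing control, helicase activation, polymerases and fork, Pcna partners, nucleotide supply, E2F and RB, MCM relatives, mitosis and cell type markers), the rule for named genes and all alternatives were chosen with earlier results of these data known. Named were the 9 members, list genes past the threshold in the age fit with batch or needed to describe a count, Mki67, and the 10 genes most correlated with the members. The fits were checked on simulated counts, drawn independently with the same dispersion for all genes. That check does not cover replicates in which many genes shift together. Alternatives were limma-trend 3.58.1, DESeq2 1.42.0, total counts or RLE factors in place of TMM, 10 as the minimum count, no filter, each library left out, the replicate number as a block, a length and GC correction (loess, span 0.3), batch B alone, a fit of all 4 groups, and the exon-union length.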

Additional observations from a re-analysis of the deposited data

How the results depend on the processing

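The 9 tested licensing genes are called members here, changes are log2 fold changes, and left-out ranges span all fits in which 1 library was omitted. The cause of a difference between settings was not tested. For age with the batch term, 0 members were called under every setting except no filter (2 higher). All genes called were 360, against 584 with DESeq2, 1094 without a filter, 123 in batch B alone and 84 (without B old replicate 1) to 2007 (without B young replicate 2) with a library left out. Mcm4 was -0.026 after the length and GC correction, and left-out ranges were -0.16 to 0.212 for Mcm4, -0.078 to 0.59 for Mcm3 and -0.07 to 1.13 for Mcm10. In B young against A young, 2 to 7 members were called lower and 511 to 4031 of all genes called with a library left out, against 2686 in the main comparison and 4171 in a fit of all 4 groups, and Pcna was -0.427 to 0.035. In C old against B old, 0 to 2 members were called lower with a library left out, with Mcm7 at -0.254 to 0.081 and Pcna at -0.37 to 0.032. In C old against A young, 4 members were called higher, against 7 with total counts, 2 after the length and GC correction, and 2 to 5 higher and 0 to 1 lower with a library left out. There Mcm2 was 0.227 with total counts and -0.144 to 0.041 left out, Mcm3 -0.005 in the fit of all groups and -0.055 to 0.158 left out, and Pcna 0.009 with limma-trend, 0.005 with 10 as the minimum count and -0.099 to 0.08 left out. For age without the batch term, limma-trend and no filter called 0 members, and left-out fits called 0 to 2 members and 761 to 3989 genes.

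Scaling by total counts moved the median of all genes from 0.02 to 0.22 in C old against B old and to 0.31 in C old against A young, and Mcm7 (0.102 and 0.103) and Pcna (0.015 and 0.291), which had been below 0, stayed below these medians. Higher genes made up 44.8% of calls in place of 31.1% for age with the batch term, 66.4% in place of 51.9% in young cells, 62.9% in place of 49.6% in old cells, 72.5% in place of 50.1% in C old against A young, and 86.8% in place of 51.9% without the batch term. Whether replicate numbers pair the libraries cannot be decided here. In a group of 2 libraries, deviations from the group mean mirror each other, so that their correlations are not independent. Correlations were -0.111 to 0.135 for same-numbered libraries, over 0.1 in 2 of 13 pairs, and -0.135 to 0.111 for the other pairs. Not every library correlated best with its own number. With the replicate block, 294 genes were called for age with the batch term, 729 in young cells (5 members lower, Mcm4 and Mcm7 no longer called), and 0 genes, 0 members among them, without the batch term, and in C old against A young Mcm3 was -0.003 and Mcm6 no longer called (0.172). Of the 36 group means of CPM, 35 moved by less than 1 SD with RLE factors and 25 with total counts, and 20 of 36 ranks per kb were the same with the exon-union length. Depth limits Mcm10 and Cdc6 most, with 32 to 153 counts per library.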

Other observations

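Genes around the licensing set were also compared between C old and A young, where age and batch cannot be told apart. Of 15021 tested genes, 32% were called higher and 31.9% lower in this comparison, so that calls were common. In the E2F and RB list, the retinoblastoma family members Rb1 (log2 fold change 0.52), Rbl1 (0.61) and Rbl2 (0.66) and the repressive factor E2f5 (0.81) were higher in C old, and E2f2 (-1.05), the D-type cyclins Ccnd1 (-0.51), Ccnd2 (-0.82) and Ccnd3 (-0.37) and their kinases Cdk4 (-0.47) and Cdk6 (-0.58) were lower, thus 4 higher and 6 lower of 18 genes (adjusted p under 0.05 in edgeR). The other 8 genes of the list, E2f7 and E2f8 among them, were not called. The median of the list was 0.005 against 0.021 over all genes. Total counts as the scale moved the median of all genes to 0.31, with 66.2% of all tested genes called and 72.5% of these calls higher. The balance in this list was then 11 higher and 2 lower, and Ccnd1, Ccnd3, Cdk4 and Cdk6 were no longer called (-0.22, -0.08, -0.17 and -0.28). Of 15 mitosis markers, 5 were called higher in C old, namely Mki67 (1.33), Top2a (1.16), Cenpf (1.21), Kif11 (1.31) and Bub1 (0.78). The 3 lower ones were Plk1 (-1.02), Aurka (-0.53) and Ube2c (-0.58). With total counts 7 mitosis markers were higher and 1 lower, as Aurka and Ube2c were no longer called (-0.24 and -0.29). All 13 leukocyte markers were lower in C old, with a median of -3.18, and their part in these values was not tested.

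Among upstream factors, Cdc7 had the largest difference of the 14 licensing control genes, at 9.56 to 10.6 CPM in C old and 1.63 to 2.55 CPM in A young (2.30, adjusted p = 2.45e-07 in edgeR), and its groups did not overlap. Its regulatory partner Dbf4 was at 12.2 to 14.3 CPM in C old, inside the range of 6.42 to 17.2 CPM in A young. Of origin recognition genes, Orc1 (1.49), Orc3 (0.70), Orc4 (0.42) and Orc6 (0.65) were higher, and Lrwd1 (-0.29) was lower but turned to 0.01 with total counts. Helicase activation held 7 higher and 0 lower of 11, polymerases and fork genes 14 and 4 of 28, Pcna partners 4 and 1 of 8, nucleotide supply 1 and 2 of 7, and MCM relatives 2 and 0 of 3 (Mcm8, 0.69, and Mcm9, 0.48). With total counts these were 10 and 0, 23 and 3, 6 and 0, 2 and 0, and 3 and 0, and origin recognition held 6 higher and 0 lower of 7 genes and licensing control 11 and 0 of 14.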
